A study of Homo sapiens with 9 samples.

Results

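TEX13C, RBMXL3 and PNMA5 are X-linked genes that stood among the largest increases of PC-3 cells under decitabine from control counts at or near 0. They were found by their symbols among the gene identifiers of the count files and are 3 of 60617 genes. They were chosen by the control and decitabine counts of these same libraries, so their increase over the controls is a description here and carries no test. PC-3 is a line of castration-resistant prostate cancer cells. The data were 9 RNA-seq libraries of this line, 3 in each of 3 groups, collected after 5 days. The control cells (Ctrl) received the vehicle, the decitabine group (Dec) received 1 µM of decitabine, and the combination treatment (Dec_Sam) was 1 µM of decitabine together with 200 µM of S-adenosylmethionine (SAM). All groups came from the same line with no added genetic change, and nothing in the labels says that the replicates were separate cultures, so the p-values measure the spread between these libraries, which may be technical.

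Decitabine is a cytosine analogue that is built into DNA and traps the DNA methyltransferases, so that methylation of CpG sites is lost as cells divide, while SAM is the methyl donor of these enzymes. Many genes that are active in germ cells are held silent in somatic tissues by methylation of their promoters, and the X chromosome holds a large share of such genes. TEX13C belongs to the TEX13 family, whose members were named as testis-expressed genes. RBMXL3 is an intronless retrogene of the family of RBMX, which encodes the nuclear RNA-binding protein hnRNP G that takes part in splicing. PNMA5 belongs to the paraneoplastic Ma antigen family, which derives from the Gag protein of Ty3-type retrotransposons. DNA methylation of the 3 genes was not analysed here.

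On GRCh38, TEX13C (ENSG00000282815) spans chrX:125319871-125325216 on the + strand, and its canonical transcript has 2 exons and 4765 bases, of which 2979 are coding. RBMXL3 (ENSG00000175718) spans chrX:115189410-115192868 on the + strand as 1 exon of 3459 bases, with 3201 coding bases. It lies inside LRCH2, which runs on the opposite strand from 115110616 to 115234096. None of the 41 exon records of LRCH2 overlapped RBMXL3 (0 of 41), which places RBMXL3 in an intron. PNMA5 (ENSG00000198883) spans chrX:152988824-152994116 on the - strand, with 4 exons and 3188 bases in the canonical transcript and a coding length of 1344. The 3 genes therefore lie apart on the long arm and belong to separate families.

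The windows around the annotated starts are shown because CpG sites carry the methylation that decitabine removes. Each runs from 250 bases before a RefSeq transcript start to 50 bases after it (assembly GRCh38.p14), is written 5′ to 3′ on the strand of the gene, and has its CpG sites in capitals. RBMXL3 had 1 window, chrX:115189160-115189459 (+), with 14 CpG sites and a GC content of 51%. PNMA5 had 3 windows, of which the upstream one, chrX:152994067-152994366 (-), held 23 CpG sites at a GC content of 66.3%. The other two started 4 bases apart inside the gene and held 4 CpG sites each; chrX:152992168-152992467 (-) is printed. TEX13C had no entry among these windows.
RBMXL3: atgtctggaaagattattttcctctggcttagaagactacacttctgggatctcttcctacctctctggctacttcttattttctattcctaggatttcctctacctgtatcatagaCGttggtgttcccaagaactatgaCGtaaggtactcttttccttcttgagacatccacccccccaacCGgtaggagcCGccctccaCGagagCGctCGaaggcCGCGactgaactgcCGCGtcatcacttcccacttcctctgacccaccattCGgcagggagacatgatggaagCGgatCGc
PNMA5, upstream start: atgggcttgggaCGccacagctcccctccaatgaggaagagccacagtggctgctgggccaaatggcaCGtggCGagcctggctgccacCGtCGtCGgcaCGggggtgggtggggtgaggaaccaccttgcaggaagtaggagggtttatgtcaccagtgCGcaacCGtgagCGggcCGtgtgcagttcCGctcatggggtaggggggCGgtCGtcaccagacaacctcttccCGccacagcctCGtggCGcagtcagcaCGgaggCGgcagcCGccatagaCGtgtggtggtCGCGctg
PNMA5, inner start: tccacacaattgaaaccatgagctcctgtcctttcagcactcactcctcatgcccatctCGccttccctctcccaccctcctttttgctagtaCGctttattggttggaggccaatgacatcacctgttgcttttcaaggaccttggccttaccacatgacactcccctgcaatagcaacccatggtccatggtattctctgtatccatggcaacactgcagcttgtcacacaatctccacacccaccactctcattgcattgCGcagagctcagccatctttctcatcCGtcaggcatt

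Over all 35116 such windows the median was 14 CpG sites. The RBMXL3 window was at this median, with 49.7% of windows holding fewer, whereas the upstream PNMA5 window had more CpG sites than 64.2% and the inner one more than 24.5%. A pair of short words was searched on both strands because factors that repress germline genes in somatic cells bind such words, namely the E-box CACGTG of the MGA and MAX proteins and TCCCGC of E2F6. The upstream PNMA5 window held both words, and the RBMXL3 window held neither. CACGTG occurred in 7.26% and TCCCGC in 26.9% of all windows, so these matches describe the letters and are not shown to be sites. The count files are per gene and do not show which PNMA5 start was used.

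Total counts were 21934307 to 22489684 per library. Expression is given as estimated counts and as CPM, which divides counts by a library size scaled with the trimmed mean of M-values (TMM). A gene without counts in the 3 controls may have had up to 0.0496 CPM. This corresponds to 3 counts over the TMM-scaled total of the controls, which was 67319001 counts before scaling. Epithelial markers summed to 875 to 956 CPM in the controls, 869 to 921 under decitabine and 727 to 867 under the combination treatment, with KRT18 the highest and none of the 5 at 0. Single markers moved in both directions. Under decitabine the mean CPM of CDH1 went from 1.87 to 14.4, of KRT8 from 120 to 264 and of EPCAM from 17.3 to 20.4. KRT18 went from 426 to 358 and KRT19 from 360 to 241. The 10 spermatid markers summed to 5.20 to 5.33, 3.80 to 4.40 and 3.15 to 3.92 CPM in the same order, and PRM1, PRM2, TNP1 and TNP2 were at 0 in every library. TSSK6 made up most of these sums, with means of 5.15, 3.76 and 3.40 CPM, so they do not show a fall of the set. The others had at most 5 counts in any library. Of the 10, 8 were at 0 throughout the controls, 4 under decitabine and 6 under the combination treatment. The 6 leukocyte and stromal markers summed to 12.3 to 14.3, 85.5 to 101 and 80.8 to 94.0 CPM. They thus moved with the 3 genes, with PECAM1 the highest in the controls, COL1A1 the highest under either treatment, and CD3E at 0 in the controls and above 0 under decitabine. Their part in the results was not tested.

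TEX13C had 0 counts in each of the 3 controls. Under decitabine it had 1580, 1509 and 1624 counts in replicates 1 to 3, and under the combination treatment 1365, 1260 and 1573 counts. No control library had a read and every treated library had more than 1000. In CPM the level was 66.8, 63.7 and 68.8 under decitabine, a mean of 66.4 ± 2.58 (SD, n = 3), and 59.4, 55.4 and 67.0 under the combination treatment, a mean of 60.6 ± 5.88 (SD, n = 3). Against a floor of 3 counts over the control group, expression was at least 1336-fold higher under decitabine and at least 1221-fold higher under the combination treatment. In these bulk libraries, a larger number of expressing cells and more RNA per cell cannot be told apart.

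RBMXL3 also had 0 counts in each control. Its counts were 1024, 1194 and 1040 under decitabine and 1083, 1090 and 1007 under the combination treatment. Both treated groups covered nearly the same range. The CPM were 43.3, 50.4 and 44.04 under decitabine (mean 45.9 ± 3.88, SD, n = 3) and 47.2, 48.0 and 42.9 under the combination treatment (mean 46.0 ± 2.72, SD, n = 3). This was at least 923-fold above the control floor under decitabine and at least 925-fold under the combination treatment. The host gene LRCH2, which encodes a protein with leucine-rich repeats and a calponin homology domain, did not pass the test under decitabine. The controls held 1222 counts of LRCH2 in all and none of RBMXL3, and whether counting used the strand is not given in the sources used here. LRCH2 had 20.2 ± 1.78 CPM in the controls and 19.5 ± 1.52 under decitabine (SD, n = 3; log2 fold change -0.05, adjusted p = 0.67). Under the combination treatment it fell to 14.5 ± 1.45 CPM (log2 fold change -0.48, adjusted p = 0.0012), which was also below decitabine alone (log2 fold change -0.42, adjusted p = 0.017).

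PNMA5 had 1, 0 and 0 counts in controls 1 to 3. It rose to 4217, 4229 and 3322 counts under decitabine and to 3086, 3386 and 3133 counts under the combination treatment. It was the most abundant of the 3 genes in every treated library. The CPM were 178.3, 178.4 and 140.7 under decitabine (mean 165.8 ± 21.7, SD, n = 3) and 134.4, 149.0 and 133.5 under the combination treatment (mean 139 ± 8.71, SD, n = 3). Replicate 3 of the decitabine group was lower than the other two and lay within the range of the combination treatment, so that the groups overlapped. With 1 control count in all, the ratio to the controls was 10005 under decitabine (95% interval 1795 to 395228) and 8378 under the combination treatment (1503 to 330946). These intervals cover counting error only.

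**Figure D1:**
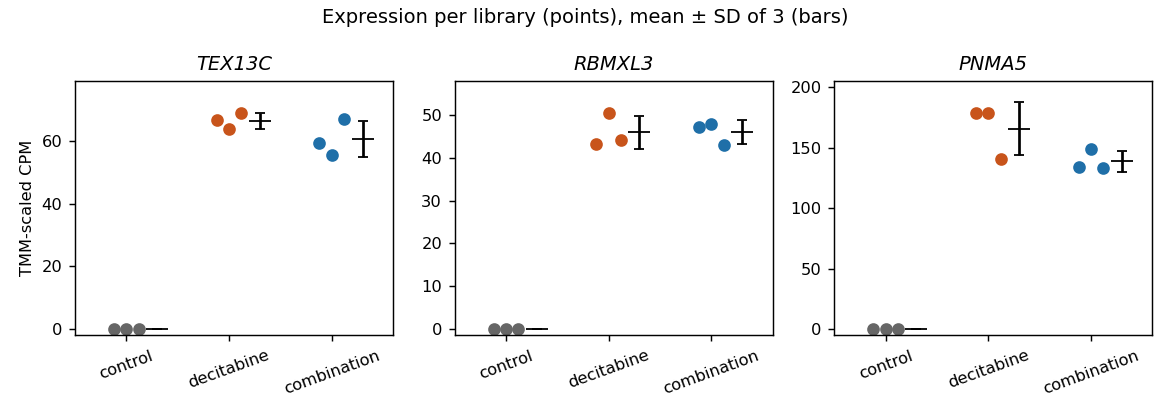
Expression of TEX13C, RBMXL3 and PNMA5 in each library, as TMM-scaled CPM on linear axes that differ between the panels; points are the 9 libraries and bars the mean ± SD of 3. The controls sit at 0 or, for 1 PNMA5 library, at 0.0497 CPM, and the 2 treated groups overlap in every panel.

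Read per kilobase of the canonical transcript, which allows levels to be compared between genes, PNMA5 stood at 52.0 CPM per kb under decitabine, TEX13C at 13.9 and RBMXL3 at 13.3. Under the combination treatment these levels were 43.6, 12.7 and 13.3. TEX13C and RBMXL3 were close to each other in both groups, and PNMA5 was well above both. Among the 18473 tested genes with a length, the median was 4.82 CPM per kb under decitabine and 4.66 under the combination treatment. TEX13C exceeded 72.0% of these genes under decitabine, RBMXL3 71.0% and PNMA5 91.7%. From counts of at most 1 in the controls, the 3 genes had thus come to lie in the upper part of the expressed genes. Replicates were tight, with coefficients of variation of 3.89%, 8.46% and 13.1% under decitabine for TEX13C, RBMXL3 and PNMA5, and of 9.69%, 5.91% and 6.27% under the combination treatment.

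The position of the 3 genes among all increases is given without a test, since it chose them. Of the 18532 genes tested, 36.3% were called higher under decitabine and 32.5% lower, at an adjusted p below 0.05 in edgeR's quasi-likelihood test, together 68.8%. Under the combination treatment these shares were 35.9%, 31.3% and 67.2%. Upregulated genes numbered 4345 where groups did not overlap and 1 group averaged 50 counts or more. On the fitted log2 scale, which for genes at 0 depends on the prior count, TEX13C (13.53), RBMXL3 (12.998) and PNMA5 (12.87) held ranks 2, 3 and 4. The gene ahead of them was DAZL, an RNA-binding protein of germ cells, with 15.19. Those just behind were the melanoma antigen gene MAGEB2 with 12.35, DCAF4L2 with 12.32, the imprinted non-coding RNA MEG3 with 12.27, the testis transcription factor gene DMRTB1 with 12.13, MAGEC1 with 12.06 and the transketolase-like gene TKTL1 with 12.03. All 3 genes passed the filter on low counts, which they did through the treated groups alone.

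Among the genes reported here, DAZL, PNMA5, TEX13C and RBMXL3 were the 4 that combined at most 1 count over all controls with an average of 1000 or more under decitabine. At an average of 50 or more there were 155 such genes, 37 of them on X (23.9%). Without the 3 genes this was 34 of 152 (22.4%). For comparison, 4.47% of the 35228 genes with at most 1 control count and 3.67% of the 18532 tested genes lay on X.

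The comparison of the combination treatment against decitabine alone asks whether SAM changed the expression reached under decitabine. Neither the control level nor the size of the increase enters it, although the decitabine libraries are those used to choose the genes. Of all genes tested, 15.7% were called in this comparison, 7.67% higher and 8.02% lower, and of the 3 genes none was called (0 of 3 at an adjusted p below 0.05, and 1 of 3 at an unadjusted p below 0.05). DESeq2 and voom with limma called none either, while PNMA5 was called under the alternatives given after its values. TEX13C was 0.913 times as high under the combination treatment as under decitabine (95% interval 0.803 to 1.04; log2 fold change -0.13, SE 0.085, adjusted p = 0.32). RBMXL3 gave a ratio of 1.002 (95% interval 0.877 to 1.14; log2 fold change 0.0030, SE 0.088, adjusted p = 0.99). PNMA5 gave a ratio of 0.838 (95% interval 0.727 to 0.966; log2 fold change -0.26, SE 0.096). Its p in edgeR's quasi-likelihood test was 0.018 before and 0.085 after adjustment over all genes tested. The intervals are not adjusted, and for RBMXL3 they exclude changes of more than 0.19 on the log2 scale in either direction. Without decitabine replicate 3 the PNMA5 difference passed the threshold, at a log2 fold change of -0.36 (adjusted p = 0.011). It also passed with all libraries kept when no filter was used (adjusted p = 0.036) and with the replicate number as a block (adjusted p = 0.043).

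**Figure D2:**
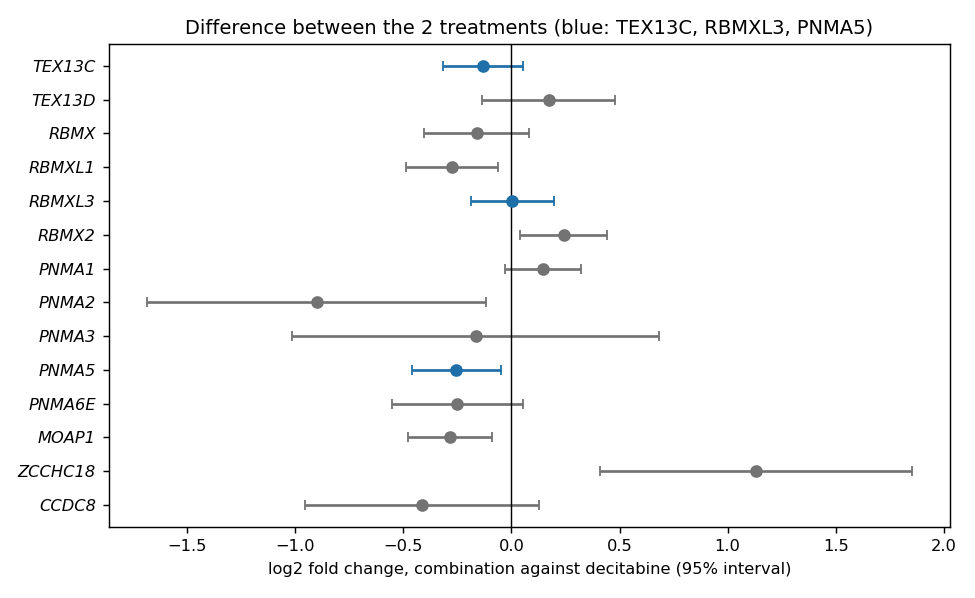
Log2 fold change of the combination treatment against decitabine alone for the 3 genes (blue) and their tested relatives (grey), with 95% intervals from the fit over 9 libraries that are not adjusted. RBMXL3 lies at 0, the TEX13C interval includes 0, and the PNMA5 interval of -0.46 to -0.05 does not.

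The TEX13 family has 3 other members, TEX13A, TEX13B and TEX13D, all X-linked. TEX13D was the only one to pass the filter on low counts, which it did through the treated groups alone, so its increase is given as a description. Its counts were 0, 1 and 0 in the controls, 226, 184 and 202 under decitabine, and 235, 215 and 222 under the combination treatment. It thus rose from the same near-zero start as TEX13C to a lower level, 2.05 CPM per kb under decitabine against 13.9 for TEX13C. With 1 control count in all, the ratio was 520 under decitabine (95% interval 93.0 to 20585) and 586 under the combination treatment (105 to 23186). Between the treatments, the log2 fold change of TEX13D was 0.17 (adjusted p = 0.45). TEX13A had 0, 0 and 1 counts in the controls, 4, 1 and 3 under decitabine and 3, 4 and 5 under the combination treatment. TEX13B had none in the controls, 3, 2 and 4 under decitabine and 8, 7 and 8 under the combination treatment. These members therefore stayed below 10 counts in every library. TEX13C and TEX13D lie 983 kb apart. Of the 31-base words in the TEX13C transcripts, 2.63% also occur in other genes, 1.65% in TEX13D, and the estimated counts of TEX13C were not whole numbers in 3 of 9 libraries, within a tolerance of 0.01.

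RBMX itself, the splicing regulator, was downregulated while RBMXL3 appeared. RBMX had 306, 294 and 309 CPM in the controls, 202, 170 and 145 under decitabine, and 176, 145 and 140 under the combination treatment. Every treated library was below every control. The means were 303 ± 7.76, 172 ± 28.4 and 154 ± 19.4 CPM (SD, n = 3), with log2 fold changes of -0.82 under decitabine (SE 0.11, adjusted p = 2.5e-05) and -0.98 under the combination treatment (SE 0.11, adjusted p = 5.3e-06). The decrease was also called when only the library size was used for scaling, at -0.57 and -0.76. Even so, RBMX stayed above RBMXL3, with 85.5 CPM per kb under decitabine against 13.3 for RBMXL3.

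Of the 4 other RBMX family genes 3 were tested, and 2 were downregulated under decitabine and 2 under the combination treatment, RBMX and RBMX2 in both cases. Over all genes tested, the shares called lower were 32.5% and 31.3%. RBMX2, which encodes a spliceosome protein, fell from 37.1 ± 1.52 CPM to 26.6 ± 1.88 under decitabine (log2 fold change -0.48, adjusted p = 0.00036). Under the combination treatment it was 31.5 ± 3.58 CPM (log2 fold change -0.24, adjusted p = 0.034). This call was lost with library size alone, at -0.0191, and without control replicate 1 or 2 or combination replicate 2 or 3 (adjusted p up to 0.14). With DESeq2, 1 family gene was called under the combination treatment in place of 2. RBMXL1, another retrogene copy, had 30.2 ± 0.978, 31.2 ± 4.12 and 25.8 ± 1.92 CPM in the 3 groups, with log2 values of 0.05 (adjusted p = 0.68) and -0.23 (adjusted p = 0.058) against the controls. With library size alone, the first of these was 0.29 and passed the test (adjusted p = 0.018), and the other was -0.00512. The other passed the test with no filter, with only the 6 libraries compared, and without decitabine replicate 1 or 3 or combination replicate 3 (adjusted p = 0.023 to 0.046). RBMX and RBMXL1 each share 28.7% of their 31-base words with other genes, so the split of reads between them is uncertain. RBMXL2, a testis-specific copy on an autosome, had 0 counts in the controls, 8, 10 and 7 under decitabine and 4, 6 and 7 under the combination treatment, too few for a test. RBMXL3 shares 1.29% of its words, all with RBMXL2, and its counts were whole in all libraries.

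The PNMA family has 13 other listed genes, of which 7 were tested. Under decitabine 4 rose (PNMA6E, PNMA3, CCDC8 and PNMA2) and 1 fell (ZCCHC18), with a median log2 fold change of 4.22 against 0.03 for all genes tested. Under the combination treatment 5 rose, PNMA1 being the fifth, and none fell (0 of 7), with a median of 3.32 against 0.05. The share called, 5 of 7 under either treatment, was near the 68.8% and 67.2% of all genes tested. With PNMA6E and PNMA3 set at their lower bounds the medians were 3.67 and 3.32. PNMA6E, PNMA3 and CCDC8, with at most 3 counts over the controls, passed the filter through the treated groups alone. So did PNMA2, with 1, 6 and 7 control counts, so these counts and medians are a description.

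PNMA6E, 402 kb from PNMA5, was the nearest to it in size of change. It had 0 counts in each control, 290, 320 and 262 under decitabine and 217, 273 and 224 under the combination treatment. This was at least 247-fold and at least 208-fold above the control floor, at 12.3 ± 1.20 and 10.3 ± 1.45 CPM (SD, n = 3). PNMA3, 62293 bases from PNMA5, had 0 counts in each control, 14, 19 and 12 under decitabine and 18, 13 and 8 under the combination treatment. Like PNMA5 it had no more than 1 count in the controls, but it reached 0.172 CPM per kb under decitabine, against 52.0 for PNMA5. CCDC8, a subunit of the 3M complex, had 2.07 estimated counts over the 3 controls, and the ratio was 48.8 under decitabine (95% interval 13.7 to 423) and 36.6 under the combination treatment (10.2 to 318). PNMA2, the gene of the Ma2 antigen, rose from 0.232 ± 0.159 to 4.43 ± 1.25 CPM under decitabine (log2 fold change 4.22). Under the combination treatment it reached 2.36 ± 1.16 CPM (3.32). These PNMA2 values are a description, as the gene passed the filter through the treated groups alone.

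PNMA1 and MOAP1 were expressed in the controls already. PNMA1 had 352 ± 20.5 CPM in the controls, 401 ± 36.7 under decitabine and 444 ± 28.6 under the combination treatment (SD, n = 3). The increase was called under the combination treatment (log2 fold change 0.34, adjusted p = 0.0024) and missed the threshold under decitabine (0.19, adjusted p = 0.055), and the difference between the treatments was not called either (0.15, adjusted p = 0.25). The increase of PNMA1 under decitabine passed under 9 alternatives. With library size alone it was 0.43 (adjusted p = 0.00017), and with DESeq2, its size factors, a mean of at least 10 counts, the replicate block, only the 6 libraries or without control replicate 1, decitabine replicate 3 or combination replicate 3 the adjusted p was 0.018 to 0.044. Per kilobase PNMA1 remained above PNMA5, at 154 against 52.0 CPM per kb under decitabine. MOAP1, a modulator of apoptosis that binds BAX, had 27.9 ± 2.73, 31.8 ± 2.36 and 26.1 ± 0.705 CPM, and was called lower under the combination treatment than under decitabine (log2 fold change -0.29, adjusted p = 0.046). ZCCHC18 fell from 1.72 ± 0.309 to 0.591 ± 0.295 CPM under decitabine (-1.53, adjusted p = 0.00086) and was called higher under the combination treatment than under decitabine (1.13, adjusted p = 0.036), at 1.30 ± 0.206 CPM. The MOAP1 call was lost without control replicate 2, decitabine replicate 1 or 2, or any 1 of the combination replicates (adjusted p up to 0.18). The ZCCHC18 call was lost without control replicate 2, decitabine replicate 1 or 3, or combination replicate 1 or 2 (adjusted p up to 0.15). PNMA6F had no counts in any library. PNMA6A, PNMA8A, PNMA8B, PNMA8C and ZCCHC12 had at most 7 counts in any library, and PNMA6A shares 51.6% of its 31-base words with other genes, nearly all with PNMA6B. PNMA5 shares none of its words (0%).

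**Figure D3:**
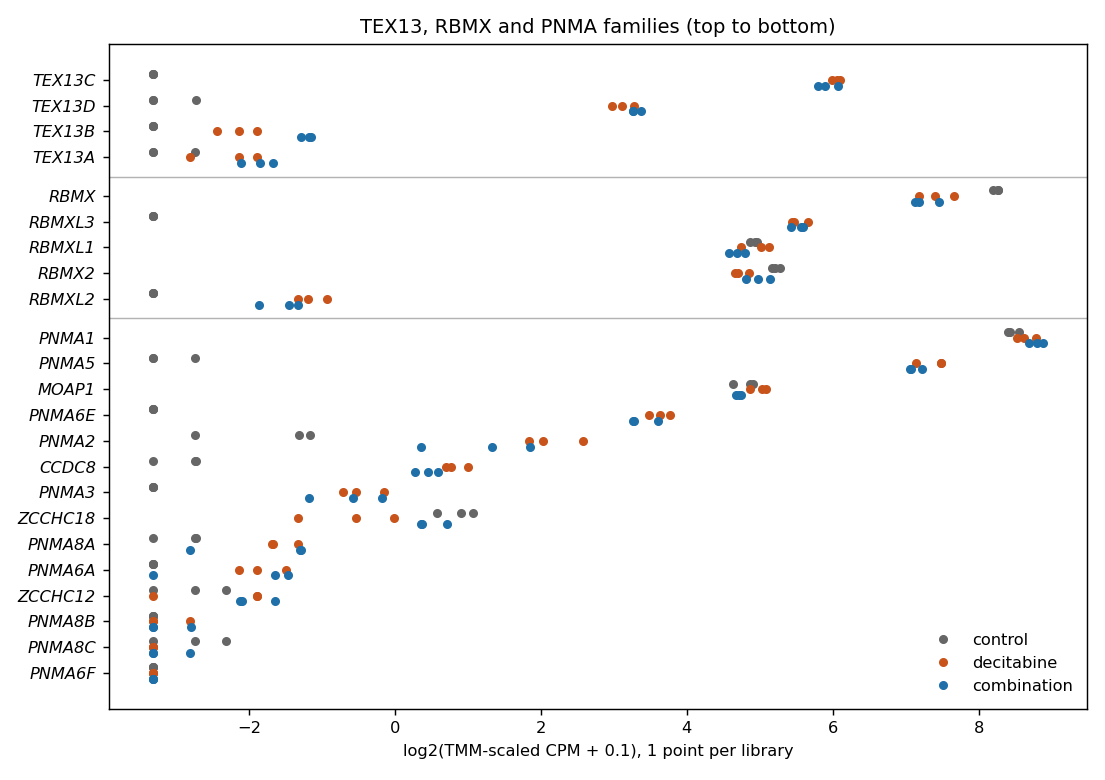
Log2(TMM-scaled CPM + 0.1) of the TEX13, RBMX and PNMA families, 1 point per library, ordered within each family by the mean of the decitabine group. TEX13C, RBMXL3 and PNMA5 move from the lower limit at 0 CPM to the upper levels of their families, while RBMX shifts to the left.

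Among 15 other genes derived from retrotransposon Gag proteins, 12 were tested. Under decitabine 6 rose and 3 fell, and under the combination treatment 6 rose and 2 fell, with a median on the log2 scale of 0.31 each time. The shares called, 9 and 8 of 12, were near the 68.8% and 67.2% of all genes tested, so they are no result about these genes. RTL1, an imprinted gene of the placenta, rose by 2.29 on the log2 scale. It had 3, 9 and 20 control counts and passed the filter through the treated groups, so its increase is a description. ARC, which forms capsids in neurons, rose by 1.93 (adjusted p = 1.2e-06) and RTL5 by 1.47 (adjusted p = 3.6e-05). The lowest called were RTL6 at -0.54 (adjusted p = 1.8e-05), PEG10 at -0.39 (adjusted p = 0.010) and RTL8A at -0.34 (adjusted p = 0.0015), and the last 2 were not called with library size alone. PEG10, LDOC1 and RTL8C were the highest in the controls, with 273, 109 and 94.4 CPM. None of the 15 combined 0 control counts with a mean of at least 50 counts under decitabine (0 of 15).

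A list of 40 other X-linked genes known from germ cells was examined as well. Of these 17 passed the filter on low counts and 23 stayed too low for a test. Apart from PASD1, TAF7L and HSFX1, all of the 17 passed through the treated groups alone, 9 of them without control counts. The counts and medians over the 17 are therefore a description that the filter shapes. Under either treatment 15 of the 17 were higher and 1 was lower, with median log2 fold changes of 7.79 under decitabine and 7.83 under the combination treatment. With the 9 genes without control counts at their lower bounds, these medians were 6.04 and 6.06. Of all genes tested, 36.3% were called higher and 32.5% lower under decitabine, and 35.9% and 31.3% under the combination treatment. The medians over all genes tested were 0.03 and 0.05. In the controls 25 of the 40 had 0 counts, and 6 of those reached a mean of at least 50 counts under decitabine. TKTL1 went from 3 control counts to 231 ± 10.9 CPM under decitabine, a ratio of 4638 (95% interval 1587 to 22491). FMR1NB, which encodes the cancer-testis antigen NY-SAR-35, and FTHL17, a ferritin heavy chain-like gene, had 0 control counts and were at least 256-fold and at least 189-fold higher. The lowest log2 values among those called were those of TAF7L, a testis form of a TFIID subunit (2.10), of the deubiquitinase USP26 (2.29) and of HSFX1 (-1.55), which has a near-identical copy. PASD1, TAF7L and HSFX1 were the highest of the list in the controls, with 1.89, 0.844 and 0.795 CPM. At the other end, 5 of the 40 had no counts in any library. Between the treatments none of the 17 was called (0 of 17 in edgeR's quasi-likelihood test, 5 at an unadjusted p below 0.05), against 15.7% of all genes tested. Many of the 17 had low counts, which leaves less power to call a change. Their SE on the log2 scale ran from 0.094 for TKTL1 to 0.49 for HSFX1. The absence of calls therefore does not show that SAM left these genes unchanged.

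The genes within 250 kb of each of the 3 were examined next. TEX13C had 3 such genes, of which only TENM1 was tested. TENM1, a teneurin gene 115559 bases away, had 2.35 ± 0.464 CPM in the controls and 1.68 ± 0.0218 under decitabine (log2 fold change -0.49, adjusted p = 0.073). RBMXL3 had 10 neighbours, of which 3 were tested and 2 rose under decitabine, against 36.3% of all genes tested. One was LUZP4, an mRNA export factor known from testis and tumours, 96847 bases away. LUZP4 had 0 counts in each control, 214, 198 and 155 under decitabine and 214, 183 and 185 under the combination treatment, at least 161-fold above the floor under decitabine. It passed the filter on low counts through the treated groups alone. The count of 2 in 3 is therefore a description that the filter shapes. The other was IL13RA2, a decoy receptor for interleukin-13, which the controls expressed at 198 ± 33.6 CPM and which rose to 380 ± 42.4 (log2 fold change 0.94, adjusted p = 3.8e-05).

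PNMA5 had 19 neighbours within 250 kb, 10 of them tested, of which 4 rose and 3 fell under decitabine, near the 36.3% and 32.5% of all genes tested. Those that rose were PNMA3 and, from 185168 bases outward, the tumour antigen genes MAGEA1 (log2 fold change 3.25), CSAG3 (1.55) and MAGEA2 (2.37). PNMA3 had 0 counts in each control and passed the filter through the treated groups alone, so the count of 4 is a description. Near-identical copies make the counts of CSAG3 and MAGEA2 uncertain. The nearest gene, ZNF185, a LIM domain protein of the actin cytoskeleton 15343 bases away, was high in the controls and fell from 206 ± 15.3 to 82.8 ± 4.44 CPM (log2 fold change -1.32, adjusted p = 1.3e-08). NSDHL and CETN2, housekeeping genes of sterol synthesis and of the centrosome, fell by 0.41 and 0.67 on the log2 scale, the former not with library size alone (-0.16, adjusted p = 0.054). MAGEA6 at 0.11, MAGEA6-DT at -0.37 and CSAG4 at -0.65 did not pass the test. The 3 genes that fell lay on the same side of PNMA5 as CSAG3 and MAGEA2, and PNMA3 and MAGEA1 lay on the other, while 5 of the 19 had no counts in any library.

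**Figure D4:**
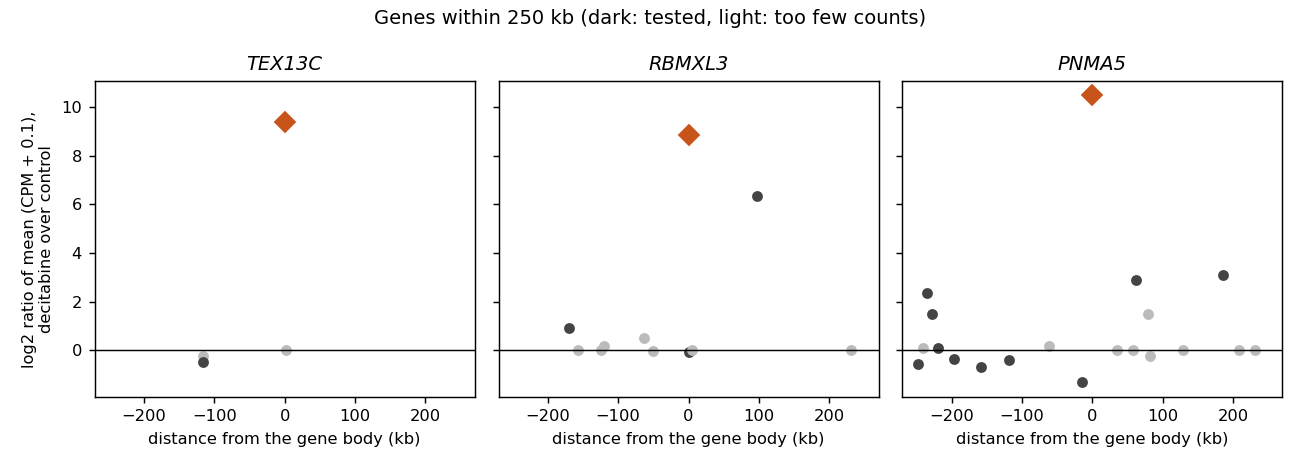
Log2 ratio of mean (CPM + 0.1), decitabine over control, against the distance in kb from each gene body; the diamond is TEX13C, RBMXL3 or PNMA5, dark points are tested neighbours and light points had too few counts. LUZP4 stands out beside RBMXL3, no TEX13C neighbour is raised, and PNMA5 has tested neighbours above and below 0.

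Profiles over the 9 libraries were compared by the root mean square difference of log2(CPM + 0.1), each gene centred on its own mean, among 14313 genes, as a description in which all points share the same libraries. Nearest to TEX13C were UPK1B, a uroplakin of the urothelium (0.194), RBMXL3 (0.262) and the cancer-testis antigen gene MAGEA4 (0.386), with PNMA5 at place 4 (0.548). RBMXL3 was nearest to UPK1B (0.257), TEX13C (0.262) and DCAF4L2 (0.356), and PNMA5 was at place 15 (0.749). The nearest to PNMA5 were TKTL1 (0.311), DAZL (0.328) and TEX13C (0.548). On this measure the pair TEX13C and RBMXL3 was closer than either was to PNMA5. The measure includes the control and decitabine values that chose the 3 genes. With controls at or near 0, it largely restates the levels reached. Under decitabine these were 66.4, 45.9 and 165.8 CPM for TEX13C, RBMXL3 and PNMA5. UPK1B, an autosomal gene, had 2.003 estimated counts over the 3 controls and rose to 75.8 ± 0.576 CPM under decitabine and 80.1 ± 5.69 under the combination treatment.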

How the data were processed

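RNA-seq was deposited for 9 libraries of PC-3 cells, with groups and replicate numbers from the titles and doses from the study's methods. According to the study's methods and the submitters' processing notes, the authors trimmed reads with Trim Galore 0.6.4 and counted them with kallisto. The deposited files used hold estimated counts by Ensembl identifier, without normalization, and log2 values deposited beside them were not used. The annotation release is not given in the sources used here, and the extraction protocol in the labels describes genomic DNA. Of 60617 identifiers, 60357 had a symbol. The members and lists were chosen with earlier results of these data known, and so were the tests.

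After rounding, 18532 genes passed filterByExpr and entered the quasi-likelihood test of edgeR 4.0.16 (R 4.3.3), with TMM scaling, robust dispersions and 1 mean per group over all 9 libraries. Benjamini-Hochberg adjustment ran over every tested gene at a threshold of 0.05, and the common dispersion was 0.00977. Lower bounds use a floor of 3 counts over the control group, and ratios with 1 to 3 control counts have a 95% interval, both for counting error only. Controls had TMM factors of 0.895 to 0.902, decitabine libraries 1.06 to 1.08 and combination libraries 1.03 to 1.07.

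Named were the 3 genes and their families, of the 2 other lists the 3 highest and 3 lowest changes called and the 3 highest in the controls, the genes within 250 kb, the 3 most similar profiles, and ranks 1 to 10 of the increases. Neighbours without a test are given as counts of genes. Promoter windows are those of RefSeq, matched by symbol for 18 of 23 family genes. Alternatives were DESeq2 1.42.0 and its size factors, voom with limma 3.58.1, scaling by library size alone, no filter or a filter at a mean of 10 counts, a fit on the 6 libraries of a comparison, a replicate block, and leaving out each library. Within groups, chi-square statistics per degree of freedom were 5.87 to 23.5, so none was a copy. The scripts were tested on simulated data. Tables and plots were made in Python 3.11.15 with numpy 2.4.6, pandas 2.3.3, matplotlib 3.10.9 and scipy 1.17.1. A few single genes are not reported here.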

Additional observations from a re-analysis of the deposited data

How the results depend on the processing

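Between the treatments, TEX13C stayed lower and not called under every alternative, from -0.21 to -0.069 on leaving out 1 library (adjusted p = 0.097 to 0.71). RBMXL3 lay so close to 0 that its sign changed, to -0.00606 with DESeq2's size factors, -0.00608 with DESeq2, -0.0225 with library size alone, -0.000746 with only the 6 libraries compared and -0.037 to 0.075 on leaving out 1 library, never called. PNMA5 was called with no filter (-0.25, adjusted p = 0.036), with the replicate number as a block (-0.25, adjusted p = 0.043) and without decitabine replicate 3, in a range of -0.36 to -0.20 on leaving out 1 library (adjusted p = 0.011 to 0.30). Same-numbered libraries of the treated groups correlated in their deviations at 0.233, 0.0359 and 0.229, while replicate 1 of either treated group correlated with replicate 3 of the other at -0.22. Those of controls and decitabine correlated at -0.0136, -0.0165 and 0.0182. Whether the numbers pair the treated samples is not settled by these values. The block raised the count of genes called between the treatments from 2908 to 3656.

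With no filter, 2 TEX13 genes were called under decitabine and 3 under the combination treatment in place of 1. RBMX family calls under the combination treatment were 1 with library size alone and with DESeq2 and 4 with no filter in place of 2, and 1 to 3 on leaving out 1 library. All genes called between the treatments ranged from 861 (without combination replicate 2) to 4063 on leaving out 1 library, with 1783 and 1004 without decitabine replicates 1 and 2 and 1364 without combination replicate 1. Library size alone moved the TEX13C level under decitabine to 70.7 CPM and the median of all genes by 0.246 under decitabine and 0.22 under the combination treatment; genes called higher and lower were then 8849 and 3746 under decitabine, against 6729 and 6030, and 8695 and 3857 under the combination treatment, against 6647 and 5799. Signs turned, without a call, for MOAP1 (0.12, combination treatment) and LRCH2 (0.19, decitabine) with library size alone. LRCH2, at -0.054 in the main fit, also turned without control replicate 1 (0.00811) and decitabine replicate 3 (0.00336). On leaving out 1 library it ranged from -0.117 to 0.00811. The sign of RBMXL1 under decitabine turned without decitabine replicate 1 (-0.0394, in a range up to 0.148 on leaving out 1 library). Between the treatments PNMA3, at -0.17 in the main fit, turned without decitabine replicate 2 (0.0373) and combination replicate 3 (0.0977). Its range on leaving out 1 library was -0.476 to 0.0977. Among 74 further results, 56 alternatives lost or gained a call. With 3 libraries a group and 1 cell line, differences inside the intervals given were not detectable, and the cause of these changes was not tested.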
